A study of Mus musculus with 22 samples.

Results

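The gene expression changes that deletion of Keap1 made in the same direction in tumours initiated with and without a tobacco carcinogen were described here. All 22 RNA-seq libraries of the series entered: 10 from Keap1-deleted and 12 from Keap1-wildtype primary tumours of the mouse cheek lining (oral buccal mucosa), which model squamous cell carcinoma of the head and neck. Every animal carried Krt5CreER-T2/+, Trp53fl/fl and 2 copies of Rosa26LSL-PIK3CA(H1047R), so tamoxifen-activated Cre removed the tumour suppressor Trp53 and switched on an activated PIK3CA oncogene in the controls too. The Keap1-deleted animals carried Keap1fl/fl in addition. Tumours were started by injecting 4-hydroxytamoxifen into the cheek, either alone (called untreated) or with the tobacco carcinogen benzo[a]pyrene (BAP). In the untreated arm 6 tumours were Keap1-wildtype and 5 Keap1-deleted, and the BAP arm held the same numbers. Cre was driven by the Krt5 promoter, which is active in basal keratinocytes, and stromal and immune cells are not its target. The labels used here do not state age or sex, or whether any tumours share an animal, so p-values measure the spread between these tumours.

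KEAP1 is the adaptor through which a CUL3 ubiquitin ligase marks the transcription factor NRF2 (Nfe2l2) for destruction, and oxidants or electrophiles that modify KEAP1 cysteines let NRF2 accumulate. NRF2 then pairs with small MAF proteins on antioxidant response elements and switches on genes for glutathione and thioredoxin chemistry, quinone and aldehyde detoxification, heme breakdown, iron storage and NADPH supply. Loss of KEAP1 or gain of NRF2 is a recurrent lesion of squamous carcinomas.

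A single Keap1 effect was estimated over both arms in an additive model with BAP as the second factor, and the effect was also estimated in each arm. The arms share no library. A gene was called at an adjusted p under 0.05 (edgeR quasi-likelihood test, Benjamini-Hochberg over 19202 tested genes). It was counted as shared when it was called in the additive model and had the same sign with an unadjusted p under 0.05 in each arm. Levels are given in CPM, counts scaled to a common library size, which do not allow comparison between genes because they are not divided by length. Changes are log2 fold changes of Keap1-deleted over Keap1-wildtype tumours, written ± standard error (SE).

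Library depth ran from 29235010 to 39862777 counts. A pair of libraries stood apart from their labels or groups. Keap1 stood at 65.6 CPM in the library labelled Keap1-deleted BAP 2, within the range of all wildtype tumours and just above that of the wildtype BAP ones. Keap1-wildtype untreated 6 held a sum of 1768 CPM over 14 basal keratinocyte markers, against 21103 to 56482 CPM in the other 5 tumours of its group. The same sum spanned 30867 to 71063 CPM in Keap1-wildtype BAP, 2754 to 33788 CPM in Keap1-deleted untreated and 343 to 2064 CPM in Keap1-deleted BAP tumours, so the keratinocyte share of the RNA moved with deletion, most in the BAP arm. The labelled squamous carcinoma is therefore poor in keratinocyte RNA in all 5 Keap1-deleted BAP tumours. In bulk tumours, fewer cells of a type and less RNA per cell cannot be told apart.

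Keap1 itself (chr9:21229730-21239361, GRCm38) fell in both arms. It measured 45.8 to 78.9 with a median of 55.7 CPM in wildtype untreated tumours and 22.2, 30.00, 36.4, 32.2 and 23.5 CPM in the deleted untreated ones, so these groups did not overlap. In the BAP arm it measured 52.3 to 64.6 with a median of 57.5 CPM in wildtype tumours and 29.8, 65.6, 9.45, 32.2 and 14.97 CPM in deleted ones. The second deleted library lay just above this wildtype range and the other 4 lay below it. The change was -0.96 ± 0.22 over both arms (edgeR adjusted p = 0.00484), -0.98 in the untreated and -0.93 in the BAP arm, and -1.19 over both arms without the library that stood at the wildtype level. Gene-level counts include exons outside any deleted part and RNA of cells without Cre. Nfe2l2, which encodes NRF2, was lower by the additive model (-1.05 ± 0.28, edgeR adjusted p = 0.00823), but was not shared, with -0.40 in the untreated (edgeR unadjusted p = 0.221) and -1.73 in the BAP arm. Pik3ca changed by -0.11 ± 0.12 (edgeR adjusted p = 0.509).

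The additive model called 3202 genes higher and 3173 lower in Keap1-deleted tumours, 16.7% and 16.5% of the tested genes and 33.2% in all. Of these, 885 higher and 876 lower genes were shared, 4.61% and 4.56% of the tested genes and 9.17% in all. With the spread estimated over all 22 libraries, the BAP arm called 7746 genes (40.3%) and the untreated arm 56 (0.292%). In the untreated arm 3382 genes had an unadjusted p under 0.05. The change was larger in the BAP arm for 730 of the 885 shared higher and 658 of the 876 shared lower genes, and the arms differed by under 0.5 log2 units for 330 and 549 of them. The test of the difference between arms called 1333 genes (6.94%), 43 of the shared ones among them. It fell to 1 gene without Keap1-deleted untreated 1, without untreated 2 or without untreated 5, and to 2 genes without Keap1-deleted BAP 4. Among additive-called genes, 49 had opposite signs in the arms. Leaving out Keap1-wildtype untreated 6 raised the shared genes to 2394 higher and 1480 lower, which held 1706 of the 1761. Leaving out Keap1-deleted untreated 4 lowered them to 554 and 541. With a basal keratinocyte score (the mean log2 CPM of the 14 markers) entered as a covariate, 75 higher and 6 lower genes were shared, 50 of them among the 1761.

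**Figure D1:**
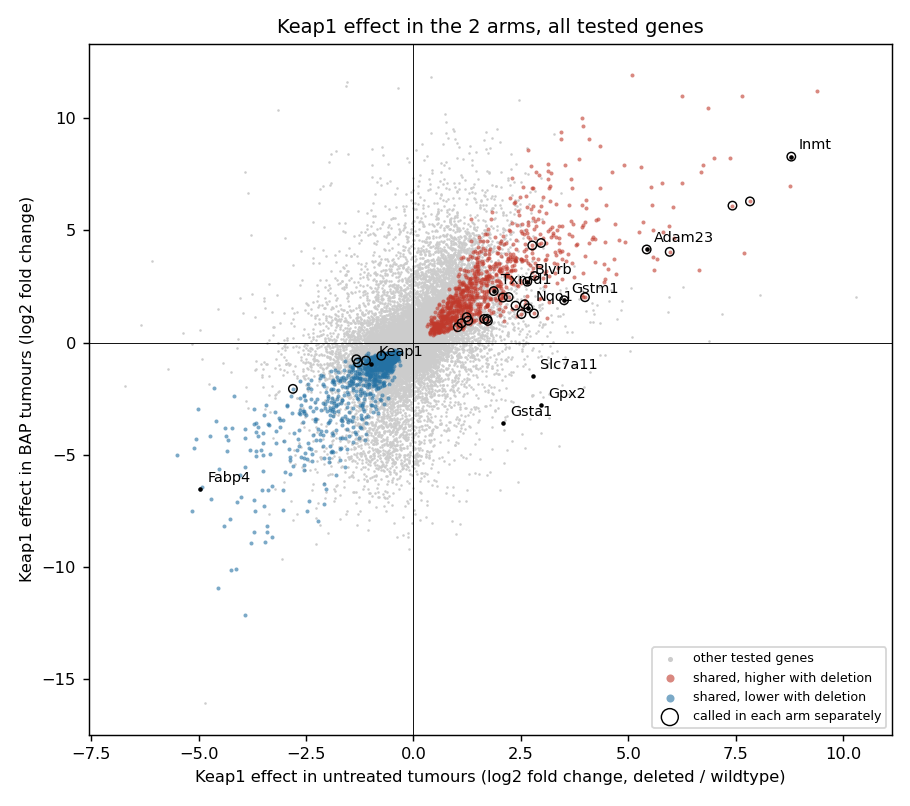
Keap1 effect in the untreated arm (x axis) against the BAP arm (y axis), both as log2 fold change of Keap1-deleted over wildtype tumours, 1 point per tested gene. Red and blue points are the 885 shared higher and 876 shared lower genes, rings mark the 31 genes called in each arm within the fit of all libraries, and Slc7a11, Gpx2 and Gsta1 lie at the lower right with opposite signs.

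To see how far one arm foretold the other, each arm was fitted with its own 11 libraries and its 200 genes of smallest p per direction were read in the other. Of 200 higher genes chosen in untreated tumours, 176 (88%) were also higher in BAP tumours, and 113 (56.5%) had an unadjusted p under 0.05, against 52.3% and 26.9% of all genes. Of 200 lower ones, 158 (79%) kept the sign and 90 (45%) reached that p, against 47.7% and 22.5%. In the reverse reading, 190 of 200 higher genes (95%) and 183 of 200 lower genes (91.5%) chosen in BAP tumours kept their sign, but only 9 in each direction (4.5%) reached an unadjusted p under 0.05, against 5.95% and 7.004% of all genes. So the signs carried over in both readings, and the p-values only from the untreated to the BAP arm.

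A stricter count took the genes called in each arm, at an adjusted p under 0.05 in both. Both arms were contrasts of the fit of all 22 libraries and share its estimate of the spread. Fitted with its own 11 libraries, the untreated arm called 0 genes at that threshold and the BAP arm 8030, so no gene was then called in both. In the fit of all libraries the stricter count held 26 higher and 5 lower genes, 0.135% and 0.026% of the tested genes and 0.161% in all. The 26 were Inmt, Nqo1, Mmd, Sqor, Pgrmc1, Fyn, Slc1a4, Txnrd1, Esd, Enpp2, Gbe1, Gldc, Adam23, Marco, Cat, Blvrb, Gstm2, Creg1, Abhd4, Gstm1, Cds2, Gstp1, Myl4, Cd300lb, Ighg2c and Igha. The 5 were Slc29a2, Mrgbp, Trappc5, Gm960 and Ang. The smallest adjusted p of the difference between arms among the 31 was 0.0932, for Sqor (edgeR). This naming was chosen after the values were seen. By another reading, every Keap1-deleted tumour lay above every wildtype tumour of its arm for 44 genes (0.229% of those tested) and below for 15 (0.0781%), 0.307% in all, and 15 of the 26 higher and 2 of the 5 lower genes were among them. Of the 31, Inmt, Sqor, Pgrmc1, Slc1a4, Gbe1, Adam23, Cat, Blvrb, Creg1, Gstm1, Ighg2c and Igha were called in each arm in all 22 fits that left out 1 tumour. The size of the group was less steady, from 13 higher genes without Keap1-wildtype untreated 4 to 1350 without Keap1-wildtype untreated 6, and from 0 lower genes without Keap1-wildtype untreated 2 to 555. With the basal keratinocyte covariate, 18 of the 31 stayed shared, and 16 did with a skeletal muscle score as the covariate.

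**Figure D2:**
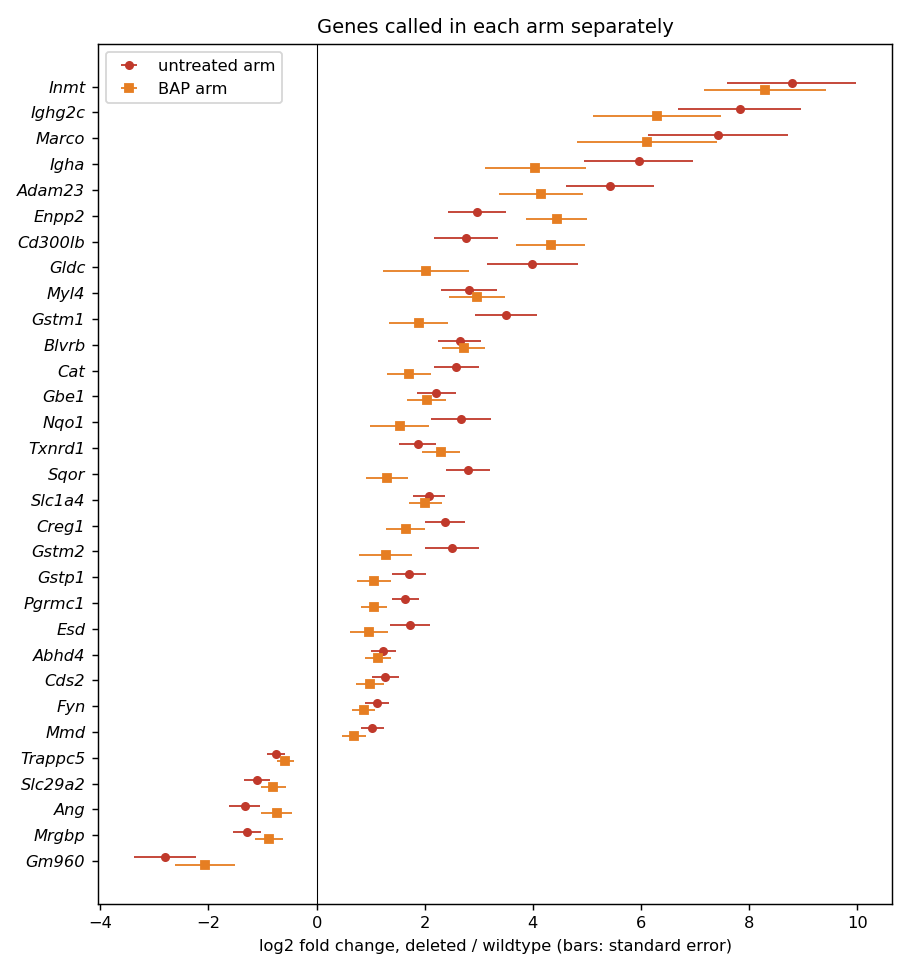
Log2 fold change of Keap1-deleted over wildtype tumours (x axis) for the 31 genes called in each arm, with the untreated arm as circles and the BAP arm as squares, bars showing the standard error. Each gene has both symbols on the same side of 0, from Inmt at the top to Gm960 at the bottom.

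Blvrb, Txnrd1 and Ftl1, all of the antioxidant programme, rose by similar amounts in both arms. Over 6 lists of NRF2 target genes, 77 of 78 members were tested. The additive model called 37 higher and 3 lower, against a background of 33.2% in both directions. Of the 77, 18 were shared and higher and 1, Pgls, was shared and lower, and 6 were called in each arm. The median member changed by 1.32 in the untreated and 0.34 in the BAP arm, against -0.05 and -0.00 over all genes, and 32 of the 77 had opposite signs in the arms. Over all genes, 69.6% had the same sign in both arms. These lists were chosen from textbook NRF2 biology with earlier results of these data known. The shared higher count of the lists ran from 15 to 23 when 1 tumour was left out. It was again 18 with the basal keratinocyte covariate, but spread otherwise over the lists: glutathione members went from 6 to 10 and heme and iron members from 6 to 1, and the members called in each arm went from 6 to 0. With the skeletal muscle covariate 2 were shared and higher. Without the pair of libraries that stood apart, 24 were shared and higher, and the additive changes were 2.84 for Blvrb, 2.25 for Txnrd1, 2.01 for Ftl1, 2.65 for Gstm1 and 2.02 for Nqo1.

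Of these lists heme breakdown and iron storage had the highest share of shared members, but 1 of its 9 members was shared with the basal keratinocyte covariate and 1 with the skeletal muscle covariate, against 6 without them. All 6 of its 9 members that passed the additive test were shared: Blvrb, Ftl1, Fth1, Slc48a1, Slc40a1 and Fech. Blvrb (chr7:27447978-27466144) encodes biliverdin reductase B, which turns biliverdin to bilirubin and reduces flavins. It measured 12.6 to 46.9 with a median of 26.6 CPM in wildtype untreated and 253, 218, 85.1, 125 and 175 CPM in deleted untreated tumours. In the BAP arm the values were 15.4 to 29.6 with a median of 21.01 CPM in wildtype and 306, 106, 51.1, 85.4 and 172 CPM in deleted tumours. The groups did not overlap in either arm, and the change was 2.65 ± 0.40 and 2.72 ± 0.40 (edgeR adjusted p = 0.00424 and 2.84e-04). Ftl1 (chr7:45457944-45459884), the ferritin light chain that stores iron, was 398 ± 288 CPM (SD, n = 6) against 1318 ± 269.5 CPM (SD, n = 5) untreated and 349.6 ± 143 CPM (SD, n = 6) against 1155 ± 531 CPM (SD, n = 5) with BAP. Its groups did not overlap in either arm, and the changes of 1.73 and 1.72 differed by less than their SE. Fth1, the ferritin heavy chain, rose by 1.68 over both arms (edgeR adjusted p = 0.00323), with 1.41 in the untreated and 1.95 in the BAP arm. Keap1-wildtype untreated 6, the tumour poor in keratinocyte RNA, overlapped its deleted group at 3263 CPM of Fth1, and the other 5 wildtype untreated tumours reached at most 872 CPM. The heme transporter gene Slc48a1 rose by 1.30 and the iron exporter gene Slc40a1, ferroportin, by 1.54 (edgeR adjusted p = 0.00209 and 0.00313). Macrophages also make ferritin, ferroportin and SLC48A1, and the summed CPM of 20 macrophage markers moved with deletion, as given with the cell type lists. Its part in these values was not tested. Hmox1, which encodes the enzyme that opens the heme ring, did not follow: it changed by 0.06 and -1.44 (additive edgeR adjusted p = 0.158).

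**Figure D3:**
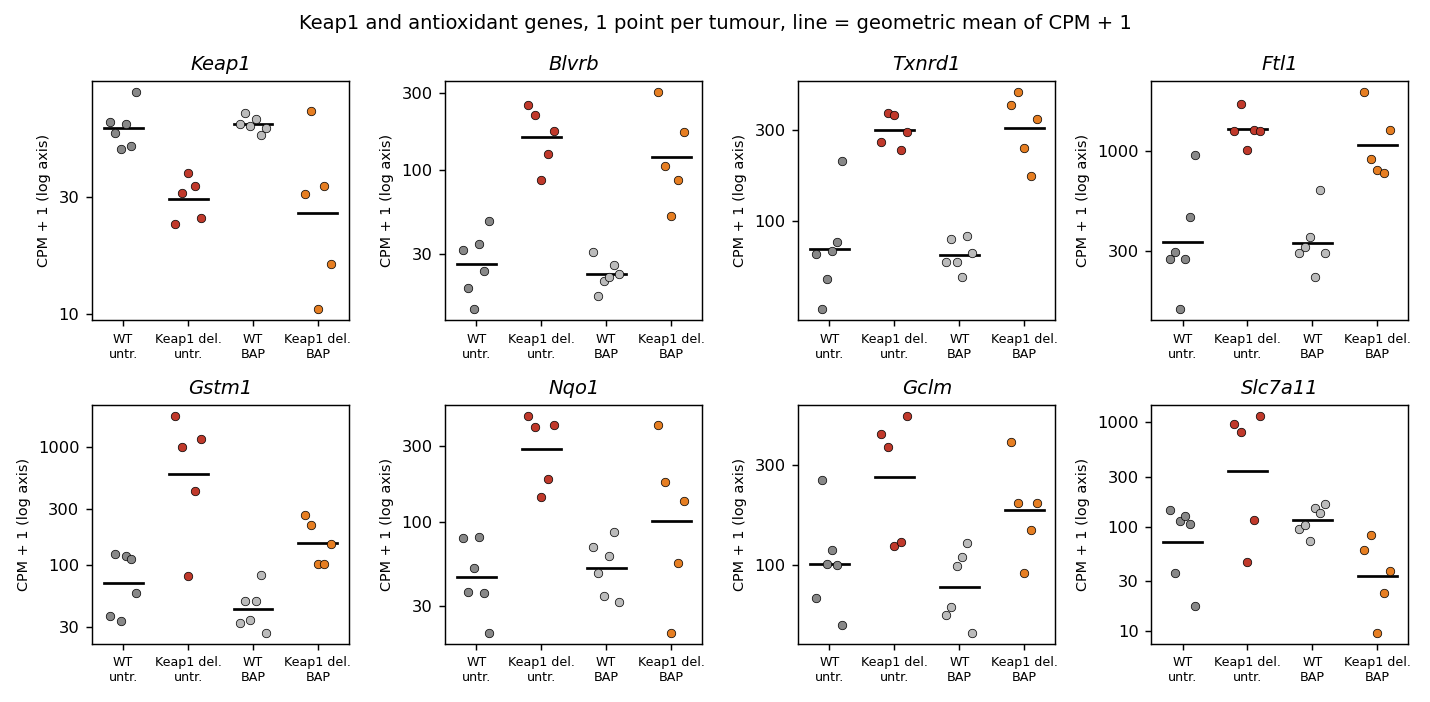
CPM + 1 on a log axis for Keap1 and 7 antioxidant genes, 1 point per tumour in the 4 groups, with a line at the geometric mean. Blvrb, Txnrd1 and Ftl1 separate deleted from wildtype tumours in both arms, Keap1 shows the deleted BAP tumour at the wildtype level, and Slc7a11 is high in 3 deleted untreated tumours and low in the deleted BAP ones.

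Txnrd1 was the only shared member of 12 thioredoxin genes, near the 9.17% shared over all genes. The glutathione reductase gene Gsr, of the glutathione list, was shared too. Txnrd1 (chr10:82833951-82897712), the selenoenzyme that reduces thioredoxin, measured 33.3 to 205 with a median of 67.1 CPM in wildtype untreated and 259, 367, 359, 233 and 291 CPM in deleted untreated tumours, with no overlap. In BAP tumours it measured 49.6 to 82.2 with a median of 62.9 CPM against 403, 472, 239.7, 170.5 and 341 CPM, again with no overlap, and the tumour labelled deleted with wildtype-level Keap1 had the highest value of all. The change was 1.87 ± 0.35 and 2.30 ± 0.35 (edgeR adjusted p = 0.0238 and 3.20e-04). Gsr, glutathione reductase, rose by 1.45 ± 0.26 (edgeR adjusted p = 0.00151), with 1.51 and 1.38 in the arms. The remaining 11 thioredoxin list members were not shared. Srxn1, sulfiredoxin, was called by the additive model (1.08 ± 0.40, edgeR adjusted p = 0.0421) on the strength of the untreated arm, 1.86 against 0.26 with BAP (edgeR unadjusted p = 0.606), and lost its additive call in 13 of the 22 fits that left out 1 tumour.

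Among 23 glutathione genes 11 rose in the additive model, none fell and 6 were shared: Gstm1, Gstp1, Gsr, Gstm2, Gclm and Gsta3. Gsta3 changed by 3.05 over both arms, and by 2.25 without Keap1-deleted BAP 1, where it lost its additive call (edgeR adjusted p = 0.0693). Gstm1 (chr3:108012255-108017973), which joins glutathione to electrophiles, measured 32.8 to 123 with a median of 85.5 CPM in wildtype untreated and 1855, 1009, 80.2, 429.9 and 1184 CPM in deleted untreated tumours, where only Keap1-deleted untreated 3 lay within the wildtype range. With BAP it measured 25.9 to 81.8 with a median of 41.1 CPM against 265, 218, 101, 102 and 151 CPM, with no overlap. The changes were 3.50 ± 0.57 and 1.89 ± 0.54 (edgeR adjusted p = 0.00756 and 0.00940). Gstp1 rose by 1.71 and 1.06 (edgeR adjusted p = 0.0235 and 0.0120). Glutathione S-transferase genes of the same class are similar in sequence, some of them closely. The split between Gstm1 and Gstm2 or among Gsta members can therefore depend on how the authors' counting shared reads. Gclm, the modifier subunit of glutamate-cysteine ligase, measured 425, 368, 122, 128 and 520.0 CPM in deleted untreated tumours against 50.3 to 253 with a median of 99.2 CPM in wildtype ones, and the groups overlapped in both arms. It rose by 1.38 ± 0.31 (edgeR adjusted p = 0.00442), nearly evenly in the arms at 1.45 and 1.30. Its catalytic partner Gclc was called by the additive model (1.45 ± 0.51, edgeR adjusted p = 0.0348) but changed by 2.45 in the untreated arm and 0.37 in the BAP arm (edgeR unadjusted p = 0.549), and lost its additive call in 6 of the 22 fits that left out 1 tumour.

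Quinone and aldehyde detoxification gave 12 higher of 18 members and 5 shared ones: Nqo1, Ephx1, Akr1c13, Aldh1a1 and Aldh1a7. Nqo1 (chr8:107388225-107403206), the quinone reductase often used as a readout of NRF2, measured 19.4 to 79.4 with a median of 43.2 CPM in wildtype untreated and 462, 389.7, 143, 185 and 404 CPM in deleted untreated tumours, with no overlap. In the BAP arm it measured 30.6 to 85.8 with a median of 53.8 CPM against 403, 177, 19.4, 54.3 and 135 CPM, and 2 of the 5 deleted tumours lay within the wildtype range or below it. It rose by 2.67 ± 0.56 and 1.54 ± 0.54 (edgeR adjusted p = 0.0457 and 0.0293), and held its call in each arm in 5 of the 22 fits that left out 1 tumour. Ephx1, the microsomal epoxide hydrolase that acts on benzo[a]pyrene epoxides, rose by 1.34 and 1.16. Aldh1a1, a retinal and aldehyde dehydrogenase, rose by 2.31 and 3.96. None of the 8 NADPH-supplying genes was shared and higher, and none of the 7 tested efflux pump genes was shared.

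Among regulators of the pathway, 15 genes in all, Sqstm1 and Bach1 were shared and higher and Keap1 was shared and lower, against 9.17% shared over all genes. Sqstm1 encodes p62, an autophagy adaptor that binds KEAP1. It measured 276, 401, 524, 548 and 318 CPM in deleted untreated tumours against 91.2 to 410.5 with a median of 123 CPM in wildtype ones, where Keap1-wildtype untreated 6 was the high one. With BAP it was 453, 554, 334, 511 and 295 CPM against 139 to 190.4 with a median of 158 CPM, with no overlap. It rose by 1.37 ± 0.22 (edgeR adjusted p = 9.18e-04), 1.31 and 1.44 in the arms. Bach1, a repressor that competes for the same DNA elements, rose by 0.64 ± 0.17 (edgeR adjusted p = 0.00945).

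Other well-known NRF2 targets moved apart in the arms. Slc7a11, the cystine importer that feeds glutathione synthesis, measured 961, 793, 44.9, 114 and 1149.5 CPM in deleted untreated tumours against 16.2 to 142 with a median of 108 CPM in wildtype ones, so 3 deleted tumours were far above and 2 within the wildtype range. With BAP it measured 59.1, 81.8, 8.63, 21.97 and 36.9 CPM against 71.7 to 163 with a median of 117 CPM, with 4 deleted tumours below the wildtype range. Its Keap1 effect was 2.78 and -1.51, and the difference between arms was -4.28 (edgeR adjusted p = 0.0296). Gpx2, a glutathione peroxidase of epithelia, changed by 2.96 and -2.76 (difference -5.72, edgeR adjusted p = 0.0342). Gsta1 and Gsta2 gave 2.07 and 2.75 in the untreated arm and -3.59 and -2.33 in the BAP arm, and G6pdx, which starts the pentose phosphate route to NADPH, gave 0.80 and -1.14. The 3 deleted untreated tumours that were high in Slc7a11 were those with the highest basal keratinocyte sums of their group, 17040 to 33788 CPM, while the other 2 had 2754 and 5389 CPM. With the basal keratinocyte covariate the additive change of Slc7a11 was 2.72 (edgeR adjusted p = 0.00866), that of Gpx2 4.41 and that of Gsta1 3.64. In the BAP arm that score did not overlap between genotypes, at 8.82 to 9.71 in wildtype and 2.11 to 5.78 in deleted tumours. Deletion and keratinocyte share therefore cannot be told apart there, and why the signs differ between arms was not tested.

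The promoters of the genes that moved together were searched for the core of the antioxidant response element, TGACNNNGC on either strand. The search used RefSeq windows (GRCm38.p6) of 300 bases, 250 before to 50 after each RefSeq start, of which a gene can have several. The windows of Txnrd1, Pgrmc1 and Cd300lb are shown because they hold the only matches among the 26 genes called higher in each arm, and those of Gclm and Gsta3 because they are the other shared higher genes of the NRF2 lists with a match. The capitals mark the match, which lies 92, 192, 96, 134 and 121 bases before the RefSeq start of its window in that order of naming. The Txnrd1 start lies inside the gene span given above, downstream of its outermost start. The Txnrd1 window is chr10:82859089-82859147 (+), Pgrmc1 chrX:36597976-36598034 (+), Cd300lb chr11:114934434-114934492 (-), Gclm chr3:122245398-122245456 (+) and Gsta3 chr1:21240439-21240497 (+).
Txnrd1: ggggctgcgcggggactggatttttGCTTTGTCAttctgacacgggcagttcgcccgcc
Pgrmc1: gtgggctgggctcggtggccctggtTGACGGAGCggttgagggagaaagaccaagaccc
Cd300lb: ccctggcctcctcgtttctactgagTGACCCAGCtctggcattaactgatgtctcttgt
Gclm: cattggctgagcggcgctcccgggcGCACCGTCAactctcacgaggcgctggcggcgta
Gsta3: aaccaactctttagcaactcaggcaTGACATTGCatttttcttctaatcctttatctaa
Of the 26 genes 23 had a promoter in the table, and 3 of their 29 promoters (10.3%) held the core, against 14.2% of 16313 promoters of tested genes. No match of these 3 overlapped the AP-1 site TGACTCA, as matches in 77 of all promoters did. A match near a RefSeq start was thus no more frequent among them than among all promoters. These letters lie in this window or not, which says nothing of binding or of more distant elements. The same count for the shared genes was not used, since only 641 of 885 higher and 586 of 876 lower genes had an entry. The share over all promoters has the same limit, because only 12866 of 19196 tested gene symbols had an entry.

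Enzymes and carriers outside the antioxidant lists made up much of the group called in each arm. Catalase (Cat, chr2:103453849-103485160), which breaks down hydrogen peroxide in peroxisomes, measured 51.7 to 86.1 with a median of 75.7 CPM in wildtype untreated and 387, 522, 202, 253 and 796 CPM in deleted untreated tumours, with no overlap. With BAP it was 41.04 to 135 with a median of 66.3 CPM against 470.4, 239, 63.5, 227 and 206 CPM, and Keap1-deleted BAP 3 lay within the wildtype range. The changes were 2.58 ± 0.42 and 1.71 ± 0.41 (edgeR adjusted p = 0.00756 and 0.00296). Gbe1 (chr16:70313949-70569716), the glycogen branching enzyme, rose to 75.5, 91.95, 81.7, 83.8 and 64.8 CPM in deleted untreated tumours from 8.27 to 31.7 with a median of 14.2 CPM. In the BAP arm it was 115, 110.1, 26.9, 61.03 and 91.3 CPM against 9.55 to 27.00 with a median of 19.4 CPM, with 1 deleted tumour among the wildtype values. Its changes were 2.21 ± 0.36 and 2.03 ± 0.36 (edgeR adjusted p = 0.00756 and 4.53e-04).

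Slc1a4 (chr11:20302180-20332713) encodes the neutral amino acid transporter ASCT1, which carries serine and alanine. It measured 24.4 to 61.9 with a median of 28.4 CPM in wildtype untreated and 127, 194, 93.3, 126 and 192 CPM in deleted untreated tumours, and 13.5 to 43.9 with a median of 18.9 CPM in wildtype BAP and 79.1, 115, 67.6, 89.2 and 82.6 CPM in deleted BAP ones. No tumour overlapped the other genotype in either arm, and the changes of 2.08 ± 0.30 and 2.01 ± 0.30 lay within their errors of each other (edgeR adjusted p = 0.00424 and 3.01e-04). Sqor (chr2:122765237-122809569), the mitochondrial enzyme that oxidises hydrogen sulfide, rose by 2.80 and 1.30 and also separated the genotypes in both arms. Pgrmc1 (chrX:36598206-36606079), a heme-binding membrane protein, was 104 ± 30.2 CPM (SD, n = 6) against 326 ± 104 CPM (SD, n = 5) untreated and 119.6 ± 13.2 CPM (SD, n = 6) against 249 ± 75.7 CPM (SD, n = 5) with BAP, with no overlap in either arm. It rose by 1.64 and 1.06. Creg1 (chr1:165763746-165775308), a lysosomal glycoprotein, rose by 2.37 and 1.65, again with no overlap. Inmt (chr6:55170626-55175043), a methyltransferase of indoleamines, had no count in the 6 wildtype untreated tumours and measured 2.17, 3.24, 0.982, 1.32 and 0.388 CPM in the deleted ones. That was at least 108-fold higher, from a floor of 3 counts over the wildtype group. In the BAP arm 1 wildtype tumour held 0.0326 CPM and the others none, and the deleted tumours held 9.05, 0.531, 0.991, 0.912 and 3.18 CPM, a ratio of 459 with a counting interval of 82.1 to 18178 at the 95% level, which covers counting error only.

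Among the remaining members, Esd, an S-formylglutathione hydrolase, rose by 1.73 and 0.97, Gldc, of the glycine cleavage system, by 3.99 and 2.03, and the Src-family kinase gene Fyn by 1.12 and 0.87. Enpp2 encodes autotaxin, the secreted enzyme that makes lysophosphatidic acid. It measured 16.7, 54.9, 29.8, 139.9 and 30.2 CPM in deleted untreated tumours against 1.75 to 11.2 with a median of 7.59 CPM, and 31.3, 58.2, 24.9, 46.7 and 54.9 CPM in deleted BAP tumours against 1.12 to 3.91 with a median of 1.53 CPM. The groups did not overlap, and the changes were 2.97 ± 0.53 and 4.44 ± 0.57 (edgeR adjusted p = 0.0181 and 2.24e-04). Adam23 (chr1:63445891-63596276), a membrane protein of the ADAM family that lacks protease activity, measured 14.6, 128, 18.8, 188 and 69.1 CPM in deleted untreated tumours against 0.193 to 5.61 with a median of 1.18 CPM. With BAP it was 29.6, 14.1, 10.5, 22.3 and 21.2 CPM against 0.446 to 1.86 with a median of 0.956 CPM. Both arms were free of overlap, with changes of 5.42 ± 0.82 and 4.15 ± 0.78 (edgeR adjusted p = 0.00424 and 6.35e-04).

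**Figure D4:**
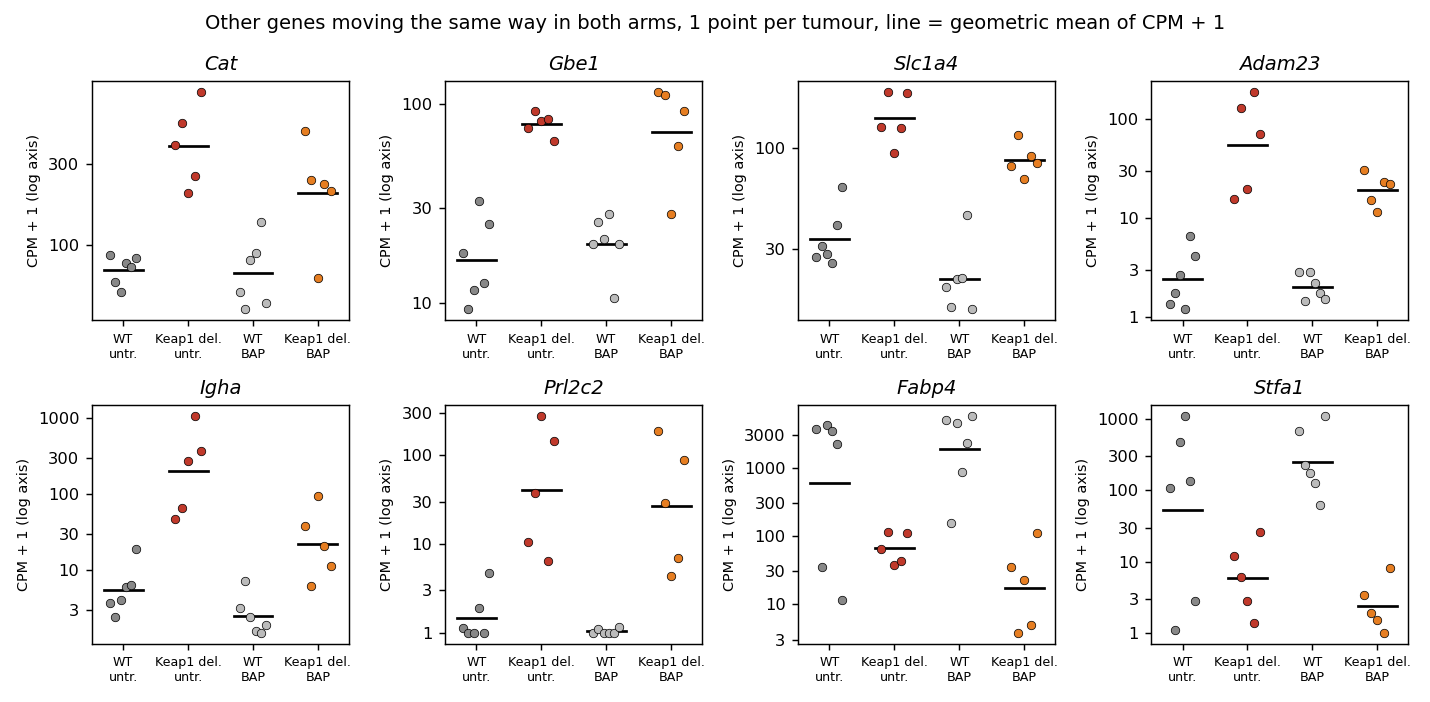
CPM + 1 on a log axis for 8 further genes that moved the same way in both arms, 1 point per tumour in the 4 groups, with a line at the geometric mean. Slc1a4 and Adam23 separate the genotypes in both arms, and for Fabp4 and Stfa1 the wildtype untreated tumours 2 and 6 lie at the level of the deleted ones.

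Some transcripts of antibody-secreting cells, mainly of immunoglobulin chains, were higher in both arms. Igha (chr12:113254830-113260236), the heavy chain constant region of IgA, measured 46.9, 64.1, 271, 1087 and 373 CPM in deleted untreated tumours against 1.39 to 17.95 with a median of 4.01 CPM in wildtype ones, with no overlap. In BAP tumours it was 36.7, 5.13, 93.00, 19.6 and 10.3 CPM against 0.497 to 6.28 with a median of 1.16 CPM, where Keap1-deleted BAP 2 lay below the highest wildtype value. The changes were 5.96 ± 1.01 and 4.05 ± 0.93 (edgeR adjusted p = 0.00972 and 0.00237). Ighg2c rose by 7.83 and 6.29, with no overlap in either arm, and Ighg2b, Igkc and Jchain, the joining chain of polymeric IgA and IgM, were shared too at additive changes of 7.13, 5.84 and 5.59. Of 10 tested B and plasma cell markers the additive model called 3 higher and none lower, near the 33.2% called over all genes. These 3 (Igha, Igkc and Jchain) were shared, against 9.17% shared over all genes. The shared count stayed at 3 in every fit that left out 1 tumour. With the basal keratinocyte covariate none of the 3 was shared. The summed CPM of the markers spanned 112 to 233 CPM in wildtype and 292 to 2062 CPM in deleted untreated tumours, and 119 to 261 and 167 to 769 CPM in wildtype and deleted BAP tumours. In the BAP arm 4 of 5 deleted tumours had sums within the wildtype range.

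Lists of other cell types in the tumour bulk also shifted with deletion. The background for their counts, here and in the next paragraph, is 33.2% called and 9.17% shared over all tested genes. Of 18 fibroblast and matrix markers 17 rose in the additive model and 4 were shared (Pdgfrb, Dcn, Mmp2 and Lox), with medians of 1.15 in the untreated and 4.08 in the BAP arm. Their summed CPM spanned 1022 to 49499.6 CPM in wildtype and 5193 to 99743 CPM in deleted untreated tumours, and 1425 to 3681 and 19116 to 55406 CPM in wildtype and deleted BAP tumours. Of 20 macrophage markers 13 rose, 1 fell and 2 were shared (Spp1 and Trem2), near the shared background, with medians of 0.72 and 4.54. Their summed CPM spanned 1478 to 10614 CPM in wildtype and 3010.5 to 8067 CPM in deleted untreated tumours, and 977 to 5479 and 8764 to 14244 CPM in wildtype and deleted BAP tumours. Without Keap1-wildtype untreated 6, which had 10614 CPM of macrophage markers, 15 of the 20 macrophage and 12 of the 18 fibroblast markers were shared.

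Of 17 tested skeletal muscle markers 14 rose and 10 were shared, among them Mylpf, Des, Mb and Neb at additive changes of 3.11, 3.25, 4.05 and 3.15, with medians of 2.24 and 4.95 in the arms. Their summed CPM spanned 22.9 to 656 CPM in wildtype and 207 to 2130.0 CPM in deleted untreated tumours, and 14.7 to 104 and 28.03 to 1606 CPM in wildtype and deleted BAP tumours, so the groups overlapped. The shared count ran from 3 to 14 when 1 tumour was left out and was 0 with the basal keratinocyte covariate. Of 12 nerve and Schwann cell markers 6 rose and 2 fell in the additive model, and 3 had opposite signs in the arms. Of the 12, 5 were shared and higher (Pmp22, Prx and Sox10 among them). None was shared with the title suffix R as a covariate, a mark of unstated meaning on 8 of the 22 titles. Of 14 endothelial markers 11 rose and 3 were shared (Tek, Cdh5 and Flt4), with medians of 1.18 in the untreated and 0.69 in the BAP arm. Of 12 neutrophil markers 2 were shared (Clec4d and Csf3r), with medians of 1.16 and 0.62, and of 10 tested mast cell and eosinophil markers 2 (Siglecf and Kit).

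Keratinocyte lists moved by an unequal amount in the arms. Of 14 basal markers 13 fell in the additive model, yet none was shared: the medians were -0.65 in the untreated and -4.53 in the BAP arm, and 9 of 14 were called by the test of the difference between arms. Of 20 differentiation markers 8 fell and 1, Ivl (involucrin of the cornified envelope), was shared at -2.87 and -5.87. The background for the counts of this paragraph is again 33.2% called and 9.17% shared over all tested genes, and the differentiation markers did not exceed it in their shared count. Of 16 sterol synthesis genes 8 fell in the additive model and none was shared. The test of the difference between arms called 12 of them. Unlike the basal markers, this list did not fall in both arms. Its medians were 0.011 in the untreated and -1.997 in the BAP arm, and 9 of the 16 had opposite signs. Interferon-stimulated genes moved apart: the smallest additive adjusted p among 22 was 0.0807, for Ddx58 (edgeR), at medians of -1.44 and 2.59, and 21 of them had opposite signs. Of these, 3 were called by the test of the difference. The summed CPM of the 22 genes had a median of 217 and a maximum of 2252 CPM in wildtype untreated tumours, against 216 and 545 CPM in deleted ones. With BAP these were 148 and 170 CPM in wildtype and 225 and 2159 CPM in deleted tumours. The maxima of wildtype untreated and deleted BAP tumours thus lay far above their medians, and typical tumours differed much less.

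**Figure D5:**
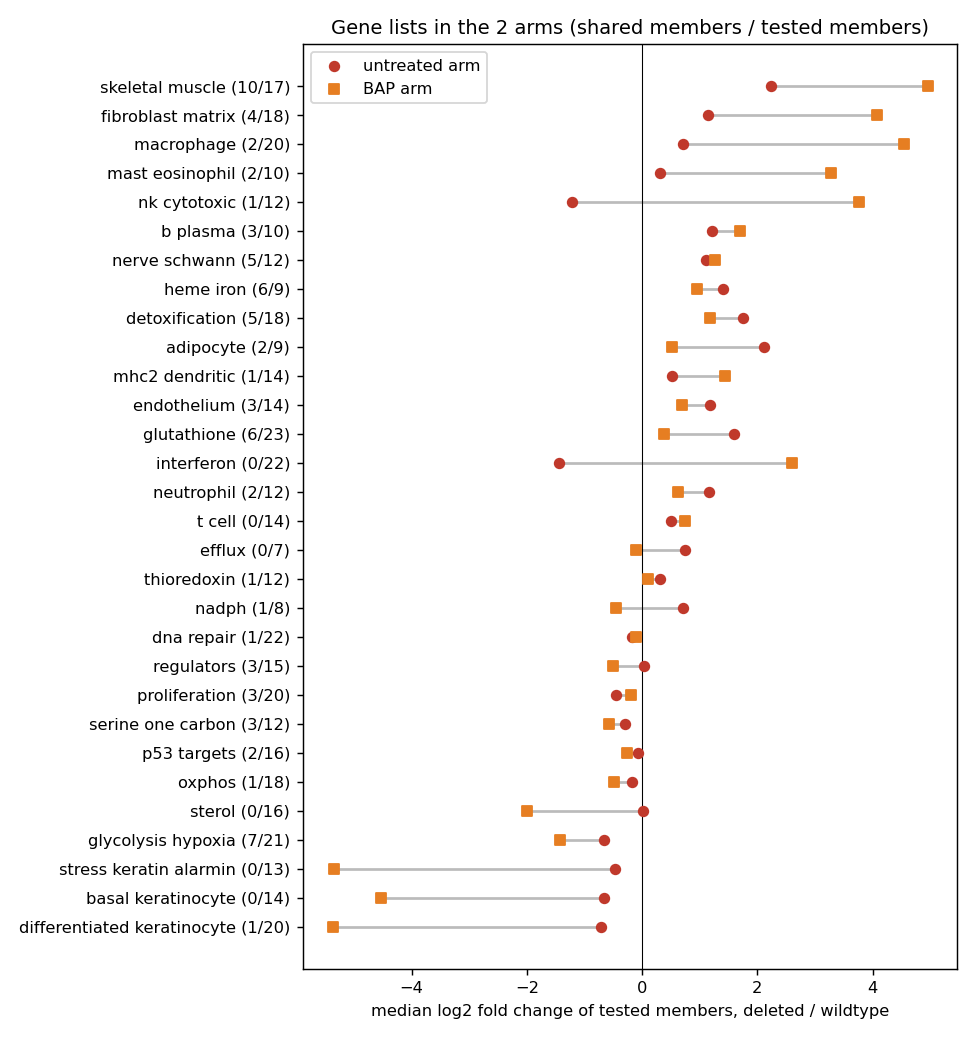
Median log2 fold change of the tested members of each gene list (rows, with shared over tested members in parentheses) in the untreated arm (circles) and the BAP arm (squares). The heme and iron, detoxification, plasma cell, nerve and endothelial lists have both medians above 0 and near each other, keratinocyte lists lie far lower in the BAP arm, and the interferon list lies at -1.44 and 2.59.

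Some shared genes were nearly absent from wildtype tumours. Grik2, a kainate receptor subunit of neurons, had no count in wildtype BAP tumours and measured 8.21, 11.6, 6.67, 6.06 and 5.28 CPM in deleted BAP ones, at least 437-fold higher. In deleted untreated tumours it measured 0.0310, 0.107, 47.9, 0.450 and 0.517 CPM, so the third held nearly all of it. Prl2c2, a placental prolactin-family hormone (proliferin), measured 9.65, 36.5, 277, 5.51 and 143 CPM against 0 to 3.76 with a median of 0.0671 CPM untreated and 186, 27.7, 3.32, 5.87 and 87.9 CPM against 0 to 0.149 with a median of 0 CPM with BAP, with no overlap in either arm. Prl2c2 and Prl2c5 are near-identical paralogs, so the split of reads between them is uncertain. Myh8, the perinatal myosin heavy chain, measured 5.43, 15.98, 3.72, 12.8 and 8.41 CPM in deleted untreated and 8.18, 2.58, 0.619, 1.56 and 0 CPM in deleted BAP tumours, against at most 0.544 and 0.187 CPM in wildtype ones. Marco, a scavenger receptor of macrophages, had no count in any wildtype tumour and was at least 43.2-fold higher in the untreated and 14.4-fold higher in the BAP arm.

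The shared genes with the largest falls included Fabp4 and families of the cornified epithelium. Fabp4, a fatty acid binding protein of adipocytes and macrophages, measured 63.3, 114, 36.5, 41.4 and 108 CPM in deleted untreated and 34.3, 2.75, 21.2, 3.89 and 108 CPM in deleted BAP tumours. Wildtype tumours had 10.3 to 4259.7 with a median of 2825 CPM untreated and 153 to 5801 with a median of 3375 CPM with BAP. The wildtype untreated tumours 2 and 6, at 33.9 and 10.3 CPM, lay at the level of the deleted ones, and in the BAP arm the groups did not overlap. It changed by -5.72 ± 0.99 over both arms (edgeR adjusted p = 0.00124). Stfa1, Stfa2 and Stfa3, cysteine protease inhibitors of the stefin A family, changed by -6.27, -5.42 and -5.79, and Sprr2a1 and Sprr2a2, small proline-rich proteins of the cornified envelope, by -7.24 and -7.03. Members of both families are near-identical copies, so values of single members are uncertain. Pyy, a gut peptide hormone, Amtn, amelotin, and Tex19.1 were shared and lower at means of at most 1.91 CPM.

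The genes that fell with the tightest errors were modest in size. Mrgbp, a subunit of the NuA4 histone acetyltransferase, measured 21.9, 18.2, 17.3, 16.4 and 23.1 CPM in deleted untreated tumours against 23.9 to 78.6 with a median of 42.1 CPM, and 22.5, 16.4, 15.7, 29.3 and 20.6 CPM against 31.5 to 53.3 with a median of 35.7 CPM with BAP. The groups did not overlap, and the changes were -1.29 ± 0.26 and -0.89 ± 0.26 (edgeR adjusted p = 0.0405 and 0.0101). Slc29a2, a nucleoside transporter, changed by -1.11 and -0.80, Trappc5, of a vesicle tethering complex, by -0.75 and -0.58, and Ang, the secreted ribonuclease angiogenin, by -1.33 and -0.74. Each of the 5 lower genes was called in each arm in 9 or fewer of the 22 fits that left out 1 tumour.

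Most genes of a glycolysis and hypoxia list fell. Of 21 members 14 fell in the additive model, none rose, and 7 were shared and lower, with medians of -0.65 in the untreated and -1.43 in the BAP arm against -0.05 and -0.00 over all genes. Ldha, lactate dehydrogenase A, measured 1565, 1257, 947, 804 and 1681 CPM in deleted untreated tumours against 1036 to 2862 with a median of 2332 CPM, which overlapped, and 1334, 779, 670.4, 456 and 953 CPM against 2662 to 3806 with a median of 3085 CPM with BAP, which did not. It changed by -1.29 ± 0.26 (edgeR adjusted p = 0.00260). Ndrg1, a hypoxia-induced gene, changed by -1.50 and -3.10, Vegfa, the angiogenic growth factor, by -1.42 and -1.77, and Pfkp, a phosphofructokinase, by -0.97 and -2.77, where the arms differed (edgeR adjusted p = 0.0461). The shared count ran from 4 to 10 when 1 tumour was left out and was 0 with the basal keratinocyte covariate.

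Proliferation, one-carbon and mitochondrial lists gave fewer shared members. Of 20 proliferation genes 6 fell, near the 33.2% called over all genes, and 3 were shared: Mki67 at -1.14, Birc5 at -0.60 and Cdc20 at -0.70. Of 12 serine and one-carbon genes 5 fell and 1 rose; Shmt1 and Shmt2, the cytosolic and mitochondrial serine hydroxymethyltransferases, were shared and lower at -1.05 and -0.72, and Gldc was the shared higher one. Of 18 oxidative phosphorylation genes 7 fell and 1, Cox6a1, was shared at -0.52. Of 22 DNA repair genes 2 rose and 2 fell, and Xrcc3 was shared at -1.16, fewer than the background of 33.2% called and 9.17% shared over all genes. The shared count of the oxidative phosphorylation list was below that background too. Among 16 p53 target genes Ccng1 was shared and higher at 0.66 and Sesn2 shared and lower at -0.77. Trp53, floxed in all groups, was higher by the additive model (1.26 ± 0.35, edgeR adjusted p = 0.0115) but not shared, with 0.66 and 1.85. It measured 20.6, 12.7, 110.3, 15.1 and 24.1 CPM in deleted BAP tumours, so Keap1-deleted BAP 3 stood far above the others, and the additive change was 0.74 without it (edgeR adjusted p = 0.0199).

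As the contrast to sharing, the genes of opposite sign with the smallest p for the difference between arms were Sema4d, Epas1, Def8, Samd12 and Cdh4, which were lower with deletion in BAP tumours but not in untreated ones, and Naip5, Exosc8, S100a6, Ift74 and Bbs12, which were higher there. Sema4d, a semaphorin, gave 0.11 and -2.08 (edgeR adjusted p of the difference = 0.00434), and Epas1, the hypoxia-inducible factor HIF2A, 0.57 and -1.66 (edgeR adjusted p = 0.0243).

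Genes near Keap1 were no more often called than others. Of 132 tested within 10 Mb of it on chromosome 9, 43 (32.6%) were called and 12 (9.09%) shared, against 33.2% and 9.17% of the other genes.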

How the data were processed

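RNA of 22 frozen primary tumours was sequenced as paired Illumina reads, per the labels' protocols. The authors deposited, per library, expected counts and effective lengths for 56748 Ensembl gene IDs, made with RSEM per the file names; no source used here names the aligner, genome build or annotation. The deposited expected counts were whole numbers, so rounding changed nothing; lengths were not used. Symbols and positions came from GENCODE M21 (GRCm38) by ID, for 52125 IDs with 99.41% of counts. Genes passing filterByExpr (minimum count 10 over the 4 groups) were scaled by TMM and tested with edgeR 4.0.16 in R 4.3.3 by the robust quasi-likelihood F test, in an additive model (Keap1 and BAP) and in a model with a term per group. Adjusted p-values are Benjamini-Hochberg values over all 19202 tested genes. No library was left out and replicates are numbered in accession order. None of 231 library pairs differed by as little as sampling noise.

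The members and the 31 gene lists were chosen with earlier results of these data known. Named genes were Keap1, Nfe2l2, Trp53, Pik3ca and 8 known NRF2 targets; per direction 10 shared genes of at least 1 CPM with the largest smaller arm effect; up to 4 shared members per list; and 5 genes per direction of opposite sign with the smallest interaction p. Others, among them the 31 genes called in each arm, Gsta1, Gsta2, Gpx2 and G6pdx, were chosen after their values were seen. Some genes the rule names are not reported here. Fold bounds use a floor of 3 counts over a group. Total counts were 29235010 to 39862777 per library. Alternatives were another scaling (DESeq2 size factors, library totals), the DESeq2 1.42.0 and limma 3.58.1 voom tests, other low-count filters, covariates, other definitions of shared and leaving out tumours; the Ddx3y covariate, and the counts of genes called in each arm and of list members under each alternative, were added after seeing the data. The scripts were tested on simulated data.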

Additional observations from a re-analysis of the deposited data

Results flagged for a closer look

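In 132 checks of single groups (33 genes in 4 groups, on log2 of CPM + 1), 6 groups had a tumour far from the others of its group; chance flags about 1 in 20. Keap1-wildtype untreated 6, poor in keratinocyte markers, was high for Sqstm1 (410 CPM, next 153). Keap1-wildtype BAP 5 was low for Gbe1 (9.55 CPM, next 18.7) and high for Slc1a4 (43.9 CPM, next 20.2). Keap1-deleted untreated 3 held 47.9 CPM of Grik2, next 0.517. The other 2 were wildtype BAP tumours with traces: Inmt at 0.0326 CPM in tumour 3 and Myh8 at 0.187 CPM in tumour 6.

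The Keap1 effect differed between the arms, by edgeR's test of the difference, for 24 of the named genes. The values are the effect in BAP minus that in untreated tumours on the log2 scale. Antioxidant genes gave -4.28 for Slc7a11, -5.72 for Gpx2, -5.67 for Gsta1, -5.08 for Gsta2 and -1.94 for G6pdx. Keratinocyte genes gave -4.79 for Krt14, -5.11 for Krt16, -5.56 for Krt6a and -3.10 for Cdh3. Shared genes whose size differed were Sprr2a2 (-8.21), Pfkp (-1.80) and Pmp22 (3.18). Genes of opposite sign gave -2.19 for Sema4d, -2.23 for Epas1, -1.51 for Def8, -4.27 for Samd12 and -6.60 for Cdh4, and 5.24 for Naip5, 1.25 for Exosc8, 2.59 for S100a6, 1.81 for Ift74 and 2.17 for Bbs12. The remaining ones were Amy1, a salivary and pancreatic amylase gene (7.73), and the T cell marker Cd5 (-3.24). Cd5 was the only one of 14 T cell markers that the additive model called, and the list medians were 0.51 in the untreated and 0.75 in the BAP arm. Amy1 stood at 200.5 CPM in Keap1-deleted BAP 1 and at 1.03 to 2.95 CPM in the other 4 tumours of that group. The count of all such genes was 1333. It was 1 without Keap1-deleted untreated 1, without untreated 2 or without untreated 5, and 2 without Keap1-deleted BAP 4.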

How the results depend on the processing

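No paired analysis was possible because the replicate numbers follow accession order only. When 1 tumour at a time was left out, additive calls ran from 2564 to 4345 higher and 2491 to 4180 lower, shared genes from 554 to 2394 higher and 541 to 1480 lower, genes called in each arm from 13 to 1350 higher and 0 to 555 lower, calls in the untreated arm from 16 to 2731 and in the BAP arm from 6768 to 8198, and differences between arms from 1 to 2309 genes. The highest values came without Keap1-wildtype untreated 6, except that of the difference between arms, which came without Keap1-wildtype untreated 1. Without Keap1-wildtype untreated 6 and Keap1-deleted BAP 2 together, 2261 higher and 1343 lower genes were shared, 1208 and 432 were called in each arm, and 2530 in the untreated arm.

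Library totals as the only scaling, which moved the median of all genes to 0.23, gave 1547 additive lower and 369 shared lower genes, with 41 higher and 1 lower called in each arm. DESeq2 called 247 higher and 216 lower in each arm, 918 untreated and 2964 for the difference between arms. limma-voom called 5375 higher and 4830 lower, with 2353 shared higher, 939 and 339 in each arm and 1888 untreated. Without a low-count filter, 1 lower gene was called in each arm, 36 untreated and 111 for the difference; with at least 1 CPM in 5 libraries, 11 lower genes were called in each arm. The title suffix R as a covariate gave 575 shared higher genes, 17 higher and 0 lower in each arm, 28 untreated and 3021 for the difference. The basal keratinocyte covariate gave 119 higher and 14 lower, 75 and 6 shared, 0 and 0 in each arm, 139 untreated, 0 BAP and 0 for the difference. The skeletal muscle covariate gave 51 and 17, 50 and 17 shared, 7 and 0 in each arm, 12 untreated, 2868 BAP and 281 for the difference. With Ddx3y as a covariate 2 lower genes were called in each arm. Other definitions of shared gave 3177 higher and 3149 lower by sign alone, 26 and 5 by an adjusted p in each arm, and 574 lower with each arm fitted alone. The cause of these shifts was not tested.

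Of 4941 single-gene values 47 changed sign in the additive model, none of them of a shared gene. Library totals gave 0.11 for Bbs12, 0.15 for G6pdx, 0.18 for Gsta4 and 0.17 for Pik3ca. Voom gave 0.089 for Bbs12, -0.33 for Gsta2 and -0.19 for Slc7a11. The basal covariate gave -0.44 for Amy1, 0.29 for Cdh4, -0.11 for Ddx58, 0.20 for Def8, 0.42 for Epas1, -0.39 for Exosc8, 0.88 for G6pdx, 3.64 for Gsta1, 1.66 for Gsta4, 0.36 for Hmox1, -0.83 for Ifit2, -0.29 for Ift74, 0.18 for Krt14, 0.24 for Krt16, 0.62 for Krt6a, 1.87 for Lpo, 0.093 for Pik3ca, -0.11 for S100a6 and 0.23 for Samd12. The muscle covariate gave 0.020 for Epas1, -0.016 for Exosc8, 0.36 for G6pdx, 1.48 for Gsta1, 0.72 for Gsta4 and -0.33 for Ifit2, and Ddx3y 0.022 for G6pdx and 0.031 for Gsta4. Leaving out 1 tumour at a time gave -0.93 to 0.12 for Gsta1, -0.31 to 0.17 for Gsta4, -0.27 to 0.019 for G6pdx and -0.084 to 0.99 for Gpx2. Depth limits the rarest transcripts: the folds of Marco in both arms, of Inmt in untreated and of Grik2 in BAP tumours are bounds.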
